A study of Mus musculus with 4 samples.

Results

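The 10 genes described here encode 7 matrix metalloproteinases (MMPs: Mmp2, Mmp8, Mmp9, Mmp12, Mmp14, Mmp19 and Mmp25) and 3 of their tissue inhibitors (TIMPs: Timp1, Timp2 and Timp3). They were chosen by name as genes of the protease and inhibitor families, out of 54532 genes in the deposited count table, and 10 of the 10 passed the filter on low counts that 16369 genes passed. Their mRNA was measured in myeloid-derived suppressor cells (MDSCs) carrying CD11b and Ly6g, sorted from the lungs of mice in which a pre-metastatic niche (PMN), a tissue state that favors later tumor cell growth, had been induced.

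Each of the 4 libraries came from the pooled cells of 10 to 12 C57BL/6 mice aged 6 to 8 weeks, so each group holds 1 library. All groups, the control included, received melanoma conditioned medium (MCM, taken from cultures of the mouse line B16F10) at 300 µl per mouse into the abdomen on 10 consecutive days and B16F10 cells into the tail vein on day 7. The control mice (Ctrl) received no peptide. The other groups received TP5, sFD17 or FR17 under the skin at 40 µM/kg/day, starting on day 3, and lungs were taken on day 10. TP5 is free thymopentin, a short immunomodulatory peptide. FR17 joins TP5 through a linker cut by MMP2 to a backbone that assembles once released, and sFD17 has the same construction with a scrambled TP5, so it assembles but lacks the TP5 activity. The lungs were dissociated with collagenases before sorting, and no library came from mice without PMN induction.

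MMPs are zinc enzymes that cut collagen, elastin, basement membrane proteins, chemokines and growth factor precursors. They are made as inactive proenzymes, most of them secreted and some of them held at the cell membrane, and TIMPs block the active enzyme by inserting their amino terminus into the zinc site. Neutrophils store MMP8 and MMP9 in granules and release them without new transcription, and neutrophil-like MDSCs share much of that program. MMP2 is the enzyme that activates FR17 and sFD17. The measurements here are of mRNA, not of protein or activity.

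The stretches that define the enzymes and the inhibitors are shown to identify the genes measured. For the 7 MMPs the coding strand of the zinc-binding site is given (33 bases, GENCODE M21 transcripts, build GRCm38), with the codons of its 3 histidines and of the catalytic glutamate in capitals.
Mmp9, chr2:164951133-164951165, + strand, exon 8 of 13: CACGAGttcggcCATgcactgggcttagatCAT
Mmp2, chr8:92839279-92839311, + strand, exon 8 of 13: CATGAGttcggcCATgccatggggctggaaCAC
Mmp14, chr14:54437627-54437659, + strand, exon 5 of 10: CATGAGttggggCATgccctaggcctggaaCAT
Mmp25, chr17:23632843-23632875, - strand, exon 5 of 10: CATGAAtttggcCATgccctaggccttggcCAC
Mmp19, chr10:128795673-128795705, + strand, exon 5 of 9: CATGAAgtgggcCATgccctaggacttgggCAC
Mmp12, chr9:7352914-7352946, + strand, exon 5 of 10: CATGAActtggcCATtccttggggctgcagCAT
Mmp8, chr9:7563086-7563118, + strand, exon 5 of 10: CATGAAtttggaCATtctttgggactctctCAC

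Each of these stretches lies within a coding exon. Counted against Mmp9, the site held 25 identical bases of 33 in Mmp2 and in Mmp14, 23 in Mmp25, 21 in Mmp19 and in Mmp12, and 20 in Mmp8. The gelatinases Mmp9 and Mmp2, which share substrates, carried the site in exon 8, and the other 5 carried it in exon 5. No pair of the printed sequences was identical.

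For the 3 TIMPs the coding strand of the inhibitory amino terminus of the mature protein is given (39 bases, same source), with the codons of the first 2 cysteines in capitals.
Timp2, chr11:118354974-118355012, - strand, exon 1 of 5: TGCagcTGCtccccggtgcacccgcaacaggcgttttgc
Timp1, chrX:20871111-20871149, + strand, exon 2 of 6: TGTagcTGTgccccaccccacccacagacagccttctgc
Timp3, chr10:86300923-86300961, + strand, exon 1 of 5: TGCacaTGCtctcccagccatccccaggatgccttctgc

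Timp1 and Timp3 each shared 25 of the 39 bases with Timp2. Mmp8 and Mmp12 lie in the MMP cluster of chromosome 9, Mmp19 and Timp3 on different parts of chromosome 10, and the other members on chromosomes of their own. Exons of Mmp19 share 789 bases with Tmem198b on the opposite strand (92 to 155 counts per library), those of Timp3 share 1733 bases with Syn3 (4 to 11 counts) and those of Mmp12 share 157 bases with Mmp1b (0 to 3 counts). The library kit keeps the strand, but the strand setting of the counting is not given in the sources used here, so reads from the shared bases cannot be assigned with certainty. RefSeq promoter sequence (GRCm38.p6, 250 bases before to 50 after the start, both strands searched) covered 7 members with 8 entries. The AP-1 motif TGANTCA was found in 1 of these, an Mmp12 entry, 44 bases before the start (position -44), against 7.81% of 32851 promoters. The motif of interferon regulatory factors (GAAA, then 2 bases of any kind, then GAAA, in 3.44% of promoters) and the STAT motif TTCNNNGAA (8.30%) were found in 0 of the 8. These are matches of letters only.

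The libraries held 15543071 to 19638228 counts. Levels are given as scaled CPM, CPM (the reads of a gene relative to all reads of its library) after TMM scaling of the library sizes, and differences as log2 fold changes of scaled CPM with a prior count of 2. Intervals are exact 95% intervals for the counts, which cover counting error only and not the difference between mice or sorts. With 1 library per group no difference has a replicate check and no test or p-value is given. A difference of at least 2-fold (log2 of 1) is called higher or lower, and this describes these libraries, not the treatments. The 6 comparisons share libraries, 3 of them the control library, and are not independent.

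Markers of other cells were present in the sorted fraction. Ly6g, the sorting marker, had 1234 to 2081 counts. It stood at 73.06, 97.83, 111.2 and 90.65 scaled CPM in the Ctrl, TP5, sFD17 and FR17 libraries, above the control in each peptide library. The summed mature neutrophil list (13 genes, led by S100a9), to which Ly6g belongs, stood at 33130, 30390, 43380 and 24580 scaled CPM in the same order, below the control in TP5 and FR17. The macrophage list (12 genes, led by Apoe) stood at 7241, 4874, 2800 and 8423 in the same order. In the sFD17 library 12 of 13 mature neutrophil genes were above and 12 of 12 macrophage genes were below the control, while in the FR17 library 11 of 13 were below and 10 of 12 above. In the TP5 library 11 of 11 fibroblast genes (led by Col3a1) were below the control, with a summed level of 167 against 302 scaled CPM. In RNA from pooled cells, fewer cells of a type and less RNA per cell cannot be told apart.

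Granulocyte proteases made up most of the family's mRNA. Per exon length, the scale on which genes can be compared, Mmp9 had a median level of 577 scaled CPM per kb over the libraries and ranked between 71 and 91 of the 16369 genes. Mmp8 followed at 271, Timp2 at 62.3, Mmp25 at 24.8, Mmp19 at 11.8, Mmp14 at 6.48, Mmp12 at 6.14, Mmp2 at 3.24, Timp1 at 2.03 and Timp3 at 1.49 scaled CPM per kb. Members near each other in this order whose levels over the 4 libraries overlapped were Mmp14 with Mmp19 and with Mmp12, Mmp12 with Mmp19, Mmp2 with Timp1, and Timp1 with Timp3. Mmp9 and Mmp8 did not overlap each other or any other member.

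**Figure D1:**
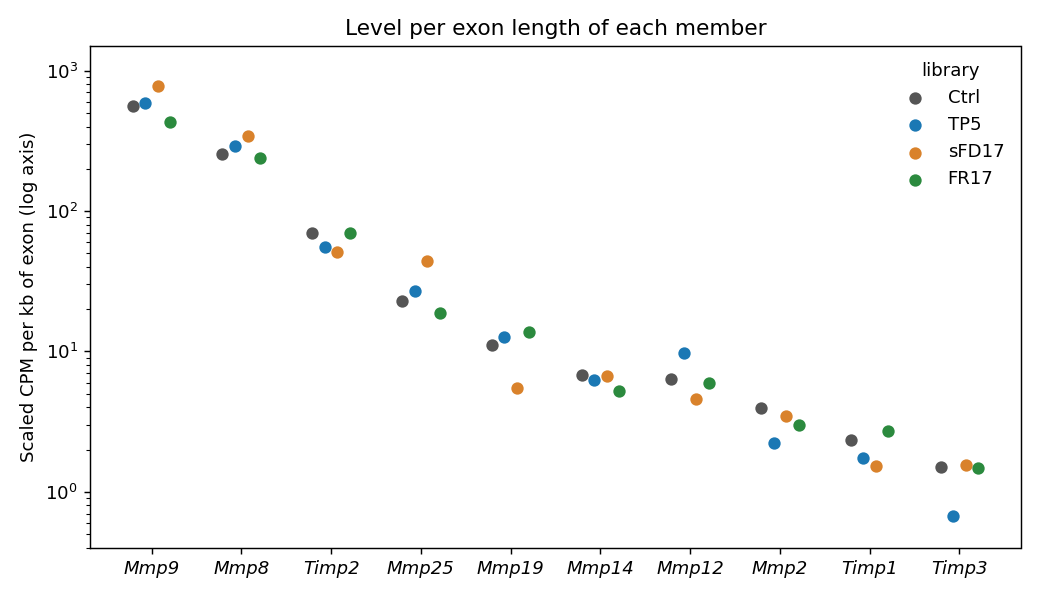
Scaled CPM per kb of exon (vertical log axis) of the 10 members in order of their median, with 1 point per library (Ctrl, TP5, sFD17 and FR17) and no error bars. Mmp9 and Mmp8 stand apart at the top, from 240 to 774 scaled CPM per kb, Timp2 is the most abundant inhibitor at 51.4 to 70.0, and Mmp2, Timp1 and Timp3 are at 3.93 or less in every library.

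Of the summed per-length level of the 7 proteases, Mmp9 supplied 59.9 to 65.7% and Mmp8 28.8 to 33.5% in the 4 libraries, while Mmp2 supplied 0.238 to 0.455%. Of the summed level of the 3 inhibitors, Timp2 supplied 94.3 to 95.8%. Together the 10 members took 0.306 to 0.350% of a library's counts. Mmp2 mRNA, from the gene of the enzyme that cuts the FR17 and sFD17 linker, was thus detected in the sorted cells at a median level 178-fold below that of Mmp9 per exon length.

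**Figure D2:**
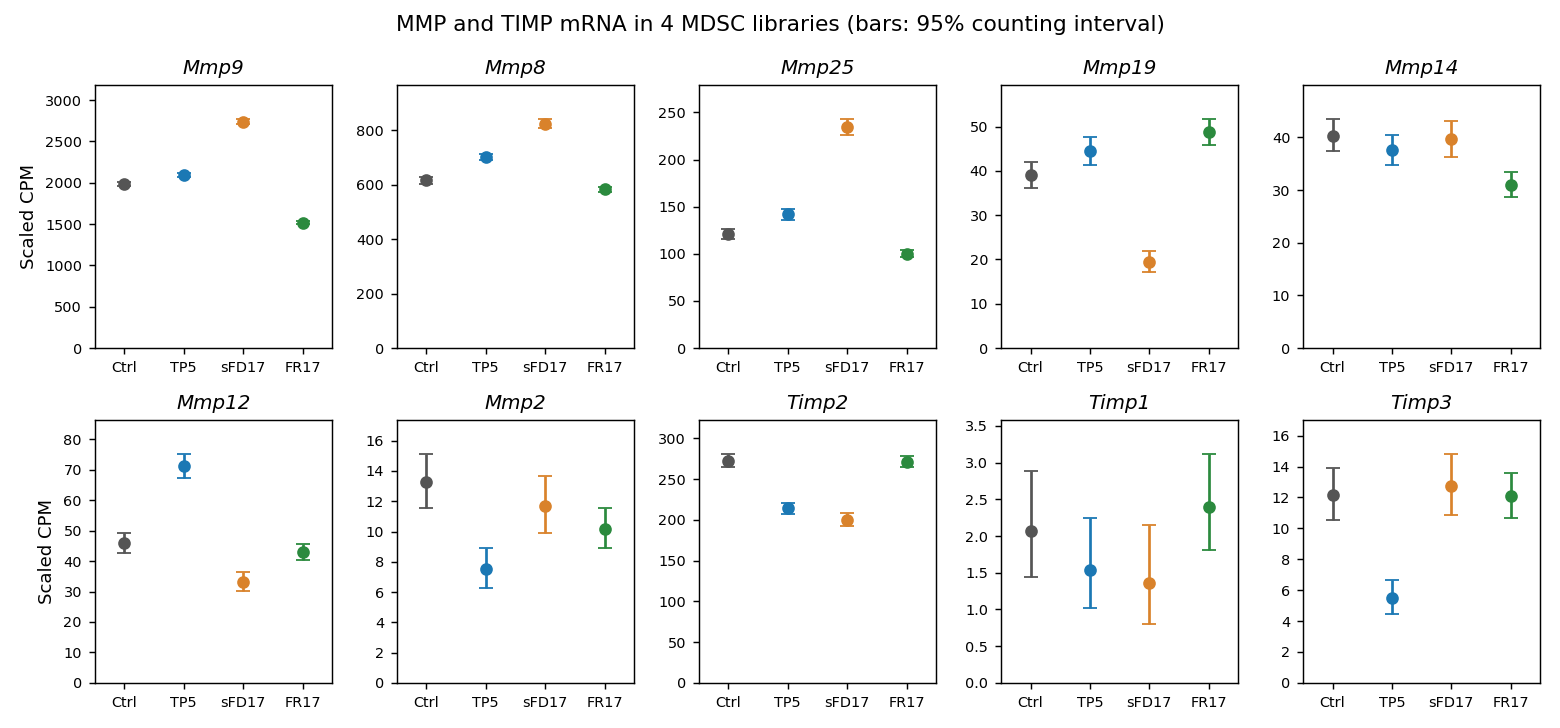
Scaled CPM (vertical axis, from 0, with its own range per gene) of each MMP and TIMP in the Ctrl, TP5, sFD17 and FR17 libraries, 1 point per library with the exact 95% interval of its count. Mmp9, Mmp8 and Mmp25 share the order sFD17, TP5, Ctrl, FR17 from high to low, Mmp19 and Mmp12 are lowest in sFD17, and Mmp2 and Timp3 are lowest in TP5.

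On the TMM scale, the neutrophil granule and membrane proteases Mmp9, Mmp8 and Mmp25 were highest in the sFD17 library and lowest in the FR17 library. Mmp9 (ENSMUSG00000017737, chr2:164940780-164955850, + strand) encodes gelatinase B, which cleaves basement membrane collagen and releases matrix-bound VEGF. It had 33520, 36785, 36169 and 34875 counts, or 1984, 2097, 2741 and 1519 scaled CPM, in the Ctrl, TP5, sFD17 and FR17 libraries. Its log2 fold change against the control was 0.08 (0.06 to 0.10) for TP5, 0.47 (0.44 to 0.49) for sFD17 and -0.39 (-0.41 to -0.36) for FR17. None of these reached 2-fold, nor did FR17 against sFD17 at -0.85 (-0.87 to -0.83), a 1.80-fold lower level in FR17.

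Mmp8 (ENSMUSG00000005800, chr9:7558456-7568485, + strand), the neutrophil collagenase, had the same order over a narrower range. It stood at 615, 701, 824 and 582 scaled CPM in Ctrl, TP5, sFD17 and FR17, from 10390, 12289, 10873 and 13368 counts. Its highest library was 1.42-fold above its lowest, with log2 fold changes of 0.19 for TP5, 0.42 for sFD17 and -0.08 for FR17 against the control. The order of Mmp8 depends on the scaling, since by library size alone it was higher in FR17 than in the control (0.17) and about equal in sFD17 and TP5 (-0.033).

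Mmp25 (ENSMUSG00000023903, chr17:23628311-23645277, - strand) encodes leukolysin, an MMP held at the leukocyte membrane by a lipid anchor. It had 2046, 2488, 3092 and 2302 counts, or 121, 142, 234 and 100 scaled CPM, in Ctrl, TP5, sFD17 and FR17, with the sFD17 library well above the other three. Against the control the log2 fold change was 0.95 (0.87 to 1.03) in sFD17, just under 2-fold, 0.23 (0.14 to 0.31) in TP5 and -0.27 (-0.36 to -0.19) in FR17. FR17 was 2.34-fold below sFD17 (log2 fold change -1.22, -1.30 to -1.15), which was called lower, but by library size alone this difference was -0.76 and was not called.

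The summed mature neutrophil markers stood at 0.917, 1.31 and 0.742 times the control in TP5, sFD17 and FR17. They were thus on the same side of the control as the 3 proteases in sFD17 and FR17, but in TP5, where 8 of 13 marker genes were below the control, the proteases were above it. With the summed mature neutrophil markers as the scale, Mmp9 differed from the control by 0.20 in TP5, 0.08 in sFD17 and 0.05 in FR17 on the log2 scale, and FR17 differed from sFD17 by -0.03. That scale shifts every gene, and the median over all genes was 0.12, -0.40 and 0.44 in TP5, sFD17 and FR17 against the control and 0.86 in FR17 against sFD17. On that scale the log2 fold change of Mmp25 was 0.56 in sFD17 and 0.16 in FR17 against the control and -0.40 in FR17 against sFD17, and that of Mmp8 was 0.35 in FR17 against the control. The neutrophil precursor granule list (8 genes, led by Ngp) was higher than the control for 8 of 8 genes in each peptide library, at 1.68, 1.48 and 1.28 times the summed control level. The part of these markers in the levels of the 3 proteases was not tested beyond this scaling.

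Mmp12 and Mmp19 were lowest in the sFD17 library. Mmp19 (ENSMUSG00000025355, chr10:128790910-128800824, + strand) encodes a secreted MMP that cleaves basement membrane components. It had 658, 779, 256 and 1118 counts, or 39.0, 44.4, 19.4 and 48.7 scaled CPM, in Ctrl, TP5, sFD17 and FR17. The sFD17 library was 2.01-fold below the control (interval -1.22 to -0.80 on the log2 scale), at the edge of the threshold, and with DESeq2 size factors the log2 fold change was -0.96 and not called. FR17 was 2.51-fold above sFD17 (1.32, 1.13 to 1.53), the widest difference of any member, and sFD17 was 2.29-fold below TP5 (-1.19, -1.40 to -0.99).

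Mmp12 (ENSMUSG00000049723, chr9:7344381-7369499, + strand), the macrophage elastase, was instead highest in the TP5 library. It stood at 45.9, 71.1, 33.04 and 42.9 scaled CPM in Ctrl, TP5, sFD17 and FR17, from 776, 1247, 436 and 985 counts. TP5 was 1.55-fold above the control (0.63, 0.50 to 0.76) and sFD17 1.39-fold below it (-0.47, -0.65 to -0.30), while FR17 against the control was -0.10 (-0.24 to 0.04) and 0.15 by library size alone. Between the peptides, sFD17 was 2.15-fold below TP5 (-1.10, -1.27 to -0.95).

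The macrophage list stood at 0.673, 0.387 and 1.16 times the control in TP5, sFD17 and FR17, lowest in sFD17 as were Mmp12 and Mmp19. In TP5, however, 11 of 12 macrophage genes were below the control while both proteases were above it. The monocyte list (6 genes, led by Nr4a1) stood at 1.02, 1.22 and 0.913 times the control, a sum that Nr4a1 dominates. Gene by gene, 4 of the 6 were above the control in TP5, 4 of 6 below it in sFD17 and 5 of 6 above it in FR17. The part of these cells in the protease levels was not tested.

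On the TMM scale, the remaining proteases, Mmp14 and Mmp2, had their highest level in the control library. Neither was apart from sFD17 there beyond counting error. By library size alone, sFD17 against the control was -0.24 for Mmp14 and -0.40 for Mmp2. With the mature neutrophil markers as the scale it was -0.41 and -0.57. Mmp14 (ENSMUSG00000000957, chr14:54431612-54445364, + strand) encodes the membrane-bound enzyme that activates pro-MMP2 at the cell surface. It was the most even member, at 40.3, 37.6, 39.6 and 31.0 scaled CPM in Ctrl, TP5, sFD17 and FR17, from 681, 659, 523 and 712 counts. Only FR17 had an interval against the control without 0, at -0.38 (-0.53 to -0.22), and this was -0.13 by library size alone and 0.05 with the mature neutrophil markers as the scale.

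Mmp2 (ENSMUSG00000031740, chr8:92827291-92853420, + strand), or gelatinase A, had 224, 132, 154 and 233 counts, or 13.3, 7.53, 11.7 and 10.2 scaled CPM, in Ctrl, TP5, sFD17 and FR17. TP5 was 1.76-fold below the control (-0.81, -1.14 to -0.50), FR17 1.31-fold below it (-0.38, -0.66 to -0.11), and sFD17 differed by -0.18 (-0.49 to 0.12). Between the MMP2-cleavable peptides, FR17 and sFD17 differed in Mmp2 by -0.20 (-0.50 to 0.10). The sign turned by library size alone (0.26) and with the mature neutrophil markers as the scale (0.61), so the direction of this difference depends on the scaling. With the mature neutrophil markers as the scale, Mmp2 in FR17 against the control was 0.04.

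Among the inhibitors, Timp2 was abundant and Timp1 and Timp3 were scarce. Timp2 (ENSMUSG00000017466, chr11:118301069-118355740, - strand) encodes the inhibitor that also bridges MMP14 and pro-MMP2 during activation. It had 4609, 3760, 2642 and 6223 counts, or 273, 214, 200 and 271 scaled CPM, in Ctrl, TP5, sFD17 and FR17. The log2 fold change against the control was -0.35 (-0.41 to -0.29) in TP5 and -0.45 (-0.52 to -0.38) in sFD17. In FR17 it was -0.0095 (-0.06 to 0.05), and 0.24 by library size alone. In sFD17, where Timp2 was lowest, the macrophage list was at 0.387 and the mature neutrophil list at 1.31 times the control.

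Timp1 (ENSMUSG00000001131, chrX:20870166-20874735, + strand), which binds pro-MMP9 and is often induced by cytokines, had only 35, 27, 18 and 55 counts in Ctrl, TP5, sFD17 and FR17. Its 2.07, 1.54, 1.36 and 2.40 scaled CPM have wide intervals, and the log2 fold change against the control reached from -1.21 to 0.34 in TP5, from -1.51 to 0.26 in sFD17 and from -0.43 to 0.86 in FR17. Its order over the libraries ended with sFD17 like that of Timp2. These had the smallest distance of any pair of members (Euclidean distance 0.25 between centered log2 profiles over 4 libraries), beside 0.27 for Mmp8 and Mmp9. With so few Timp1 counts, its place in the order of libraries and the rank of this pair lie within counting error.

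Timp3 (ENSMUSG00000020044, chr10:86300372-86349506, + strand) encodes the matrix-bound inhibitor, which also blocks ADAM and ADAMTS proteases. It had 205, 96, 168 and 277 counts, or 12.1, 5.47, 12.7 and 12.1 scaled CPM, in Ctrl, TP5, sFD17 and FR17, so the TP5 library stood alone at the low end. TP5 was 2.22-fold below the control (-1.13, -1.51 to -0.79), and sFD17 and FR17 were 2.33-fold (1.20, 0.85 to 1.60) and 2.20-fold (1.12, 0.80 to 1.49) above TP5. By library size alone the value for sFD17 against TP5 was 0.94, under 2-fold.

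Stromal markers were also low in the TP5 library. The summed fibroblast list was at 0.553, 0.826 and 1.04 times the control in TP5, sFD17 and FR17, and the endothelium list (10 genes, led by Pecam1) was at 0.807, 1.08 and 1.33 times. In TP5, 11 of 11 fibroblast and 9 of 10 endothelium genes were below the control, beside Timp3 at 0.451 times and Mmp2 at 0.568 times. In sFD17, 10 of 11 fibroblast and 5 of 10 endothelium genes were also below the control, while Timp3 was at 1.05 and Mmp2 at 0.880 times. In FR17, 6 of 11 fibroblast and 10 of 10 endothelium genes were above the control, while Timp3 was at 0.994 and Mmp2 at 0.765 times. Whether these transcripts came from MDSCs or from other cells in the sort was not tested.

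The relation of protease to inhibitor mRNA can be read within a library without any scaling between libraries. The ratio of Mmp9 to Timp1 counts was 958 in Ctrl (interval 689 to 1375), 1362 in TP5 (936 to 2068), 2009 in sFD17 (1271 to 3391) and 634 in FR17 (487 to 842). The sFD17 and FR17 intervals did not overlap. Count ratios are not corrected for exon length, which is 3539 bases for Mmp9 and 888 for Timp1. They can be compared between libraries but do not give the relative amounts of the mRNAs. The ratio of Mmp14 to Timp2 counts was 0.148, 0.175, 0.198 and 0.114 in Ctrl, TP5, sFD17 and FR17, and that of Mmp2 to Timp2 counts was 0.0486, 0.0351, 0.0583 and 0.0374. On the summed per-length level, the 7 proteases exceeded the 3 inhibitors 11.7-fold in Ctrl, 16.4-fold in TP5, 21.6-fold in sFD17 and 9.71-fold in FR17, so sFD17 and FR17 were at opposite ends. In sFD17 this came with a higher protease sum (1178 against 865 scaled CPM per kb in Ctrl) and a lower inhibitor sum (54.5 against 73.9). In FR17 the protease sum was lower (716) and the inhibitor sum close to the control (73.8). The ratio itself needs no scaling between libraries, but this split into its parts does. By library size alone, FR17 against the control was -0.14 for Mmp9, 0.17 for Mmp8 and 0.24 for Timp2 on the log2 scale, and with the mature neutrophil markers as the scale it was 0.05, 0.35 and 0.42. For sFD17 against the control, the same genes were at 0.25, 0.21 and -0.66 by library size alone. With the mature neutrophil markers as the scale they were at 0.08, 0.03 and -0.84. These sums are mostly Mmp9 with Mmp8 and Timp2. The mature neutrophil list stood at 1.31 and 0.742 times the control in sFD17 and FR17 and the macrophage list at 0.387 and 1.16 times, and their part in the ratio was not tested.

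In the 3 comparisons with the control, the members did not stand out from all genes by count of calls. In TP5 against Ctrl 0 members were higher and 1 lower (Timp3), where 3.2% of the 16369 genes were higher and 4.99% lower. In sFD17 against Ctrl 0 were higher and 1 lower (Mmp19), against 5.32% and 6.47% of all genes. In FR17 against Ctrl 0 were higher and 0 lower, against 3.92% and 3.58%, and the 10 members lay between -0.39 and 0.32 on the log2 scale. Over the members the median difference on the log2 scale was -0.011 for TP5, -0.10 for sFD17 and -0.089 for FR17, beside 0.00065, -0.025 and 0.024 over all genes. By library size alone the medians over all genes were 0.05, -0.23 and 0.26, and changes here are read relative to the TMM scale.

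**Figure D3:**
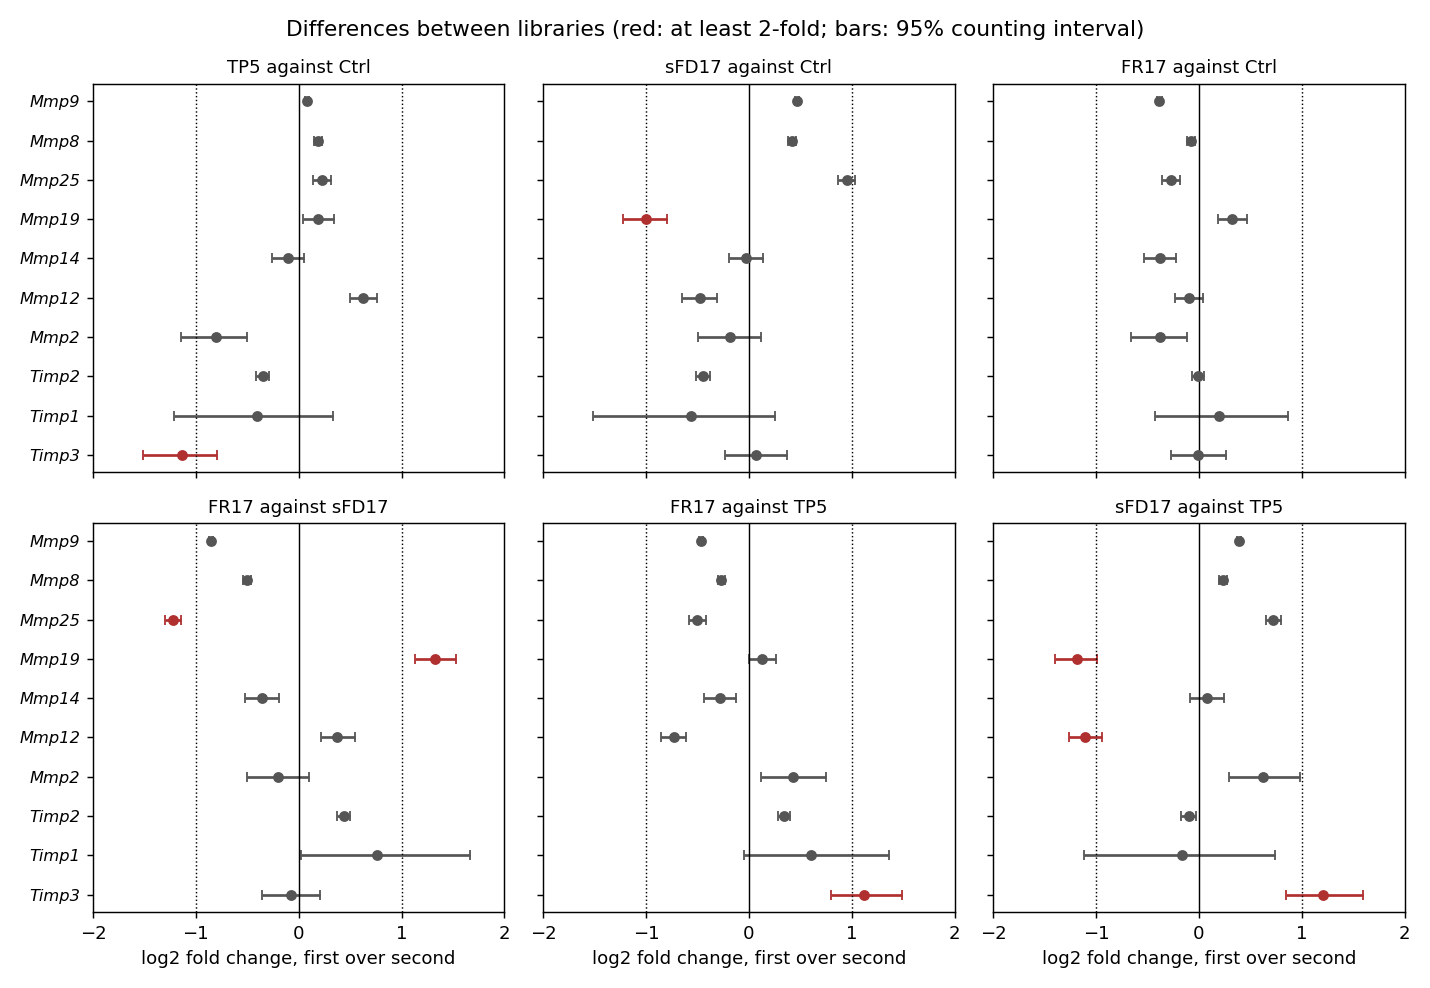
Log2 fold change (horizontal axis, first library over second) of the 10 members in the 6 comparisons, with the exact 95% counting interval as bars, dotted lines at 2-fold and red for differences of at least 2-fold. No member is red in FR17 against Ctrl, and 3 are red in sFD17 against TP5.

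Between the peptides, all given at the same dose and times, 10 members in 3 pairs of libraries were compared. FR17 and sFD17 differ by the order of residues in the TP5 segment. FR17 was higher than sFD17 for 1 member (Mmp19) and lower for 1 (Mmp25), where 11.3% of all genes were higher and 10.8% lower. FR17 and TP5 differ by the linker and assembling backbone that FR17 carries in addition. FR17 was higher than TP5 for 1 member (Timp3) and lower for 0, against 7.04% and 2.88% of all genes. sFD17 was higher than TP5 for 1 member (Timp3) and lower for 2 (Mmp12 and Mmp19), against 6.74% and 5.64%. For pairs not called, the counting intervals still leave room for a difference, as for Timp1 in sFD17 against TP5, from -1.12 to 0.74 on the log2 scale. Over the 4 libraries together, the highest was at least 2-fold above the lowest for 4 of the 10 members (Mmp12, Mmp19, Mmp25 and Timp3) and for 32.8% of all genes.

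**Figure D4:**
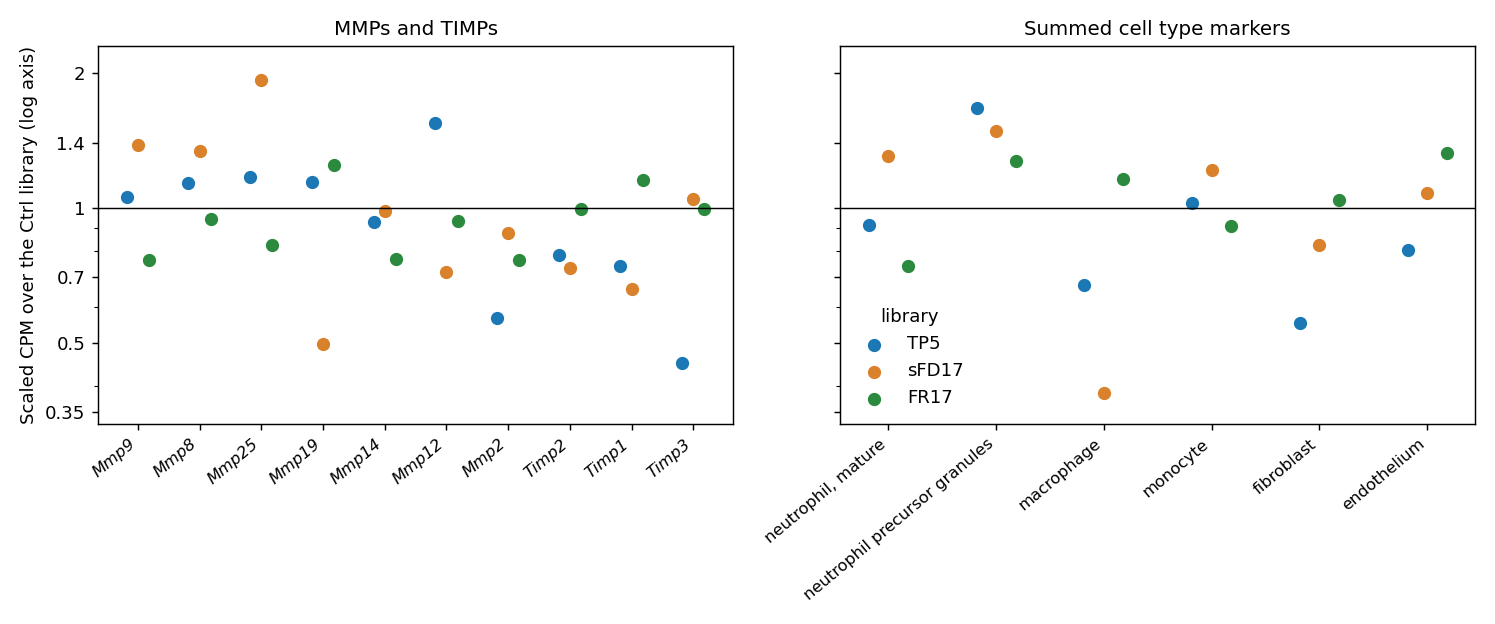
Scaled CPM of the 10 members (left) and summed scaled CPM of 6 cell type marker lists (right) in the TP5, sFD17 and FR17 libraries, each as a ratio to the Ctrl library (vertical log axis, line at 1), 1 point per library with no error bars. In sFD17 the macrophage list stands at 0.387 beside Mmp19 at 0.498. In TP5 the fibroblast list stands at 0.553 beside Mmp2 at 0.568 and Timp3 at 0.451. Other points part: in TP5 the macrophage list is at 0.673 while Mmp12 is at 1.55 and Mmp19 at 1.14. In FR17 the endothelium list is at 1.33 and the fibroblast list at 1.04 while Mmp2 is at 0.765.

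For the 4 members with a 2-fold range, the genes with the most similar profile over the 4 libraries were sought among 9791 genes with at least 50 counts in every library. Mmp19 was closest to Cd200r1, the receptor of the inhibitory ligand CD200, at a distance of 0.022 (278, 326, 107 and 463 counts in Ctrl, TP5, sFD17 and FR17), then to Pdia4 (0.062) and Ddx10 (0.087). Mmp25 was closest to Etnk1 (0.066), Cyfip2 (0.069) and Ggct (0.069). Mmp12 was closest to Smim5 (0.12), Ccr2 (0.16), the chemokine receptor of inflammatory monocytes, and Anpep (0.16). Timp3 was closest to Adgrf5 (0.15), Epas1 (0.20) and Clec14a (0.20), of which Adgrf5 had 533, 232, 408 and 758 counts and was low in TP5 as Timp3 was. With 4 libraries a small distance is easily reached among so many genes, and near genes need not have the member's order of libraries. In scaled CPM, Ccr2 was higher in FR17 than in Ctrl, unlike Mmp12.

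The rest of the family was little represented. Of the 17 genes of a list of other MMPs with Timp4, 8 passed the filter, and 9, among them Mmp7, Mmp10 and Timp4, had fewer than 10 counts in every library. Of the 8 that passed, Mmp17 was the only gene past 2-fold against the control, higher in sFD17 with 12 against 6 counts. It is named here after its values were seen. Its counting interval of -0.17 to 3.06 on the log2 scale includes no change, and by library size alone it was 0.93 and not called. Against the control 0 of the 8 were past 2-fold in TP5 and 0 in FR17, but by library size alone 2 were higher in FR17 (Mmp3 at 1.01 and Mmp17 at 1.08) and 1 lower in sFD17 (Mmp11 at -1.02), where 8.6% and 12.9% of all genes were past 2-fold in FR17 and sFD17 on that scale. Mmp13, the collagenase usually made by stromal cells, had 182, 94, 83 and 215 counts in Ctrl, TP5, sFD17 and FR17 and stayed just inside the threshold in TP5 at -0.99. Mmp3, Mmp11 and Mmp13 are likewise named after their values were seen.

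Of 21 ADAM and ADAMTS proteases, which are related zinc enzymes and partly TIMP3 targets, 2 were higher and 4 lower in TP5, 2 higher and 4 lower in sFD17, and 2 higher and 0 lower in FR17, each against the control. Over all genes the shares higher and lower were 3.2% and 4.99% in TP5, 5.32% and 6.47% in sFD17, and 3.92% and 3.58% in FR17. Of the 12 genes on this list with at least 10 counts in every library, 0 were higher and 2 lower in TP5, 0 and 1 in sFD17, and 0 and 0 in FR17, where 3.67%, 6.8% and 3.37% of all such genes were past 2-fold in either direction. Over all 21 genes the median differences on the log2 scale were -0.29, -0.10 and -0.054 in TP5, sFD17 and FR17. Adam33 had 265, 149, 43 and 439 counts in Ctrl, TP5, sFD17 and FR17 and was lower in sFD17 (log2 fold change -2.23, -2.77 to -1.80). Adamts1, which cleaves the proteoglycan versican, had 150, 53, 92 and 179 counts and was lower in TP5 (log2 fold change -1.52, -2.04 to -1.09). Adamts2, a procollagen processing enzyme, had 159, 81, 94 and 208 counts and was lower in TP5 (log2 fold change -1.01, -1.43 to -0.63), at the threshold, and by library size alone it was -0.96 and not called.

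Of 20 regulators and activators of MMPs, 17 passed the filter, of which 1 was higher and 0 lower in TP5, 1 higher and 2 lower in sFD17, and 0 higher and 0 lower in FR17 against the control, beside the same shares of all genes. By library size alone 0 were higher and 2 lower in sFD17 and 2 higher in FR17, where 12.9% and 8.6% of all genes were past 2-fold in either direction. Serpinb2, an inhibitor of plasminogen activators, which feed MMP activation, had 2108, 1404, 509 and 1502 counts in Ctrl, TP5, sFD17 and FR17 and was lower in sFD17 (log2 fold change -1.69, -1.84 to -1.55). It was lowest in the sFD17 library, as were Mmp12, Mmp19 and Timp2, and also Timp1, with only 18 counts there. Elane, neutrophil elastase, had 35, 91, 59 and 91 counts and was higher in TP5 (log2 fold change 1.28, 0.75 to 1.93) and in sFD17 (1.07, 0.48 to 1.76). By library size alone Elane was 0.86 in sFD17, not called, and 1.14 in FR17, called higher. Elane also belongs to the neutrophil precursor granule list, which was higher in every peptide library.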

How the data were processed

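MDSC mRNA of 4 groups was sequenced, 1 library per group. RNA extraction used TRIzol, and the NEBNext Ultra Directional kit was used for the libraries. The authors deposited raw counts per gene, without normalization. The submitters' processing notes name HISAT2 2.0.5, StringTie 1.3.3b, featureCounts 1.5.0-p3, edgeR 3.18.1 and GRCm38.p6, without stating the role of each. The coordinates and exon lengths of the 10 members equal those of GENCODE M21. Groups came from the labels, and 0 sample columns were left unmapped. In the 54532 rows 100 gene symbols were repeated.

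The tools were Python 3.11.15, scipy 1.17.1, numpy 2.4.6, pandas 2.3.3, matplotlib 3.10.9, R 4.3.3, DESeq2 1.42.0 and edgeR 4.0.16. A gene was kept if any library held 10 or more of its reads (16369 genes). TMM factors ran from 0.849 to 1.17. Log2 fold changes came from TMM-scaled CPM with a prior count of 2, and a call is at least 2-fold. The quasi-likelihood test could not be fitted with 1 library per group. Intervals are exact 95% Poisson for a level and exact binomial for a pair of counts. Levels per length divide scaled CPM by the exon length in the file. The procedure was tested on simulated data with counting error only and planted changes larger than 2-fold. That test does not cover the spread between mice or sorts, or changes near 2-fold.

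The members and the gene lists were chosen with earlier results of these data known. Named are the 10 members, genes of the 3 other protease and regulator lists past 2-fold against the control with at least 50 counts in 1 of the pair of libraries, the 3 genes nearest to each member with a 2-fold range, and the most abundant gene of each marker list described. A gene that this rule selects is not reported here. The alternatives were DESeq2 size factors, library size alone, a prior count of 0.5, a call at 1.5-fold, no filter, at least 10 counts in every library, and mature neutrophil markers as the scale.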

Additional observations from a re-analysis of the deposited data

How the results depend on the processing

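The number of members past the fold threshold moved with the threshold and with the scaling. With a call at 1.5-fold it was 3 in TP5 against Ctrl (1 at 2-fold), 2 in sFD17 against Ctrl (1), 4 in FR17 against sFD17 (2), 3 in FR17 against TP5 (1) and 5 in sFD17 against TP5 (3), and it stayed at 0 in FR17 against Ctrl. At that threshold 20.8%, 29.0%, 46.0%, 24.5%, 31.8% and 22.7% of all genes passed in the same order of comparisons. With DESeq2 size factors it was 0 in sFD17 against Ctrl, since Mmp19 lies at the threshold. By library size alone it was 2 in sFD17 against TP5, without Timp3, and in FR17 against sFD17 it stayed at 2 with Timp1 (1.20) in place of Mmp25, where 14.4% and 30.5% of all genes passed. With the mature neutrophil markers as the scale, FR17 against sFD17 had Mmp12 (1.19), Mmp19 (2.14), Timp1 (1.53) and Timp2 (1.26) past 2-fold and not Mmp25, where 45.3% of all genes passed. A prior count of 0.5 and both other filters left each count as it was. Of the 60 log2 fold changes of the members, DESeq2 size factors moved 6 outside their counting interval and turned 1 sign, library size alone moved 38 and turned 10, and the mature neutrophil markers as the scale moved 47 and turned 19, none of them a called difference. Of these, 7, 7 and 9 were past 2-fold, beside 8 on the TMM scale. No difference past 2-fold changed direction under any of these. No paired analysis was possible because each group holds 1 library and the labels carry no replicate number. Depth limits Timp1 most, with 18 to 55 counts, and no setting can replace the missing replicates.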

Other observations

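Markers of other cells that belong to no comparison above also differed between the libraries. The T and NK cell list (8 genes, led by Gzma) had 624, 517, 412 and 2256 counts in Ctrl, TP5, sFD17 and FR17, and 8 of 8 genes were above the control in FR17, at 2.66 times the summed scaled level. The basophil and mast cell list (6 genes, led by Prss34) had 115, 206, 151 and 539 counts, with 6 of 6 genes above the control in FR17, at 3.45 times. The platelet list (6 genes, led by Pf4) was at 0.446, 0.310 and 1.29 times the control in TP5, sFD17 and FR17, a sum carried by Pf4, while 4, 5 and 5 of the 6 genes were above the control. The epithelium list (9 genes, led by Scgb1a1) was at 1.47, 2.00 and 1.19 times, and the B cell list (4 genes, led by Cd79a) at 1.80, 1.22 and 1.41 times. The melanoma list (5 genes, led by Pmel) had 20 to 39 counts in a library, and 2 of its genes were at 0 in all 4 libraries.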
